A study of Mus musculus with 4 samples.

Results

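The genes described here encode the proteins of the cytosolic ribosome. They were taken by symbol and biotype from a table of read counts per gene: protein-coding rows named RPL or RPS with a number and an optional A, X or L, plus RPLP0, RPLP1, RPLP2 and RPSA, without the RPS6K kinases. The rule found 81 genes of 58735 rows, 32 for the small (40S) subunit and 49 for the large (60S) subunit, spread over 21 chromosomes. No measured value entered the choice.

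A cytosolic ribosome carries a single copy of most of these proteins, and the acidic stalk proteins in several copies, so cells need them in matched amounts. Their transcripts are short and abundant, and most begin with a terminal oligopyrimidine (TOP) tract through which mTORC1 and the RNA-binding protein LARP1 control their translation. In T cell leukaemia RPL5, RPL10 and RPL22 are recurrently mutated or deleted, and inherited loss of 1 copy of several ribosomal protein genes causes Diamond-Blackfan anaemia.

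All 4 libraries are described as made from Jurkat, a line of human leukaemic T cells, cultured with fetal bovine serum. One group of 2 libraries is labelled wild-type and the other group of 2 is labelled as CRISPR-Cas9 knockouts of MATR3, the gene of matrin 3, a nuclear protein that binds RNA. The labels name neither a guide nor a clone, and do not say that replicates were separate cultures, and p-values here reflect only how these libraries vary, which may be technical. The comparison asks how the knockout changes expression in these cells.

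Totals ran from 15008554 to 17477643 counts per library. The MATR3 row that could be tested (ENSG00000015479, chromosome 5) held 19 and 9 reads in wild-type, against 42 and 61 in the libraries labelled knockout. A second MATR3 row overlaps it over 99.98% of the shorter row, reads in shared sequence may have gone to neither, and so the target gene does not check the labels. Each direction given is thus that of the libraries carrying the knockout label. T cell markers were lower in those libraries for 12 of 13 genes, with a summed level of 3657 and 3402 CPM (read counts scaled by library size and edgeR's TMM factors) in wild-type and 1476 and 1439 CPM in the others. Myeloid markers were higher for 15 of the 15 tested of 16 listed, with a summed level of 169.8 and 166.1 CPM in wild-type and 6238 and 6111 CPM in the others. In wild-type CSF3R, ELANE and LYN had 0 reads. The other marker lists had few tested genes: 3 of 7 for B cells, 4 of 10 epithelial and fibroblast, and 2 of 6 erythroid. Of the tested B cell genes 2 were higher, BLNK on few reads (0 and 2, then 11 and 11), and 1 was lower. Summed B cell levels were 14.3 to 16.4 CPM (wild-type) and 9.57 to 10.7 CPM (knockout label). Of the tested epithelial and fibroblast genes 3 were higher, with sums of 22.2 to 25.3 and 133.0 to 136.4 CPM. In the libraries labelled knockout most of that sum was KRT18, at a mean of 86.3 CPM (3.71 in wild-type), and KRT8, at 36.4 CPM (8.21 in wild-type). The 1 lower erythroid gene was TFRC, at 213.9 and 242.2 CPM (wild-type) and 74.8 and 78.2 CPM (knockout label). It made up nearly all of the erythroid sums, 214.8 to 243.5 and 76.0 to 79.6 CPM. MS4A1, EPCAM, KRT19, COL1A2, COL3A1, DCN and HBB had 0 reads in both groups. Mitochondrially encoded genes took 4.92% to 5.31% of counts in wild-type and 9.33% to 9.49% in the libraries labelled knockout. The part of these shifts in the values below was not tested, and in bulk RNA fewer cells of a type and less RNA per cell cannot be told apart.

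Most ribosomal protein genes moved by small amounts, and more of them up than down. Of the 81 genes, 79 passed the filter on low counts, and RPL3L and RPL10L did not. By edgeR's quasi-likelihood test with Benjamini-Hochberg adjustment over 15294 rows and a threshold of 0.05, 36 of the 79 rose, 14 fell and 29 did not pass. Over all tested rows 33.7% rose, 32.3% fell and 66.0% passed in either direction, so the 63.3% of ribosomal protein genes that passed is close to that background. Among the 2072 other nuclear protein-coding rows averaging at least 100 CPM, a level that 72 of the ribosomal protein genes reach, 28.6% rose, 52.8% fell and 81.4% passed. Of the calls among ribosomal protein genes 72.0% were rises, against 51.0% of the calls over all rows and 35.2% of those at 100 CPM or more. Fewer calls came without replicate 1 or without replicate 2 labelled knockout, among these genes and over all tested rows alike. The median log2 fold change of the ribosomal protein genes was then 0.143 and 0.157.

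The changes were narrow in size. The median log2 fold change of the 79 genes was 0.14, beside 0.02 over all tested rows. Over the other rows at 100 CPM or more the median was -0.19. Without wild-type replicate 2 the 79 genes were at 0.08, beside 0.05 over all tested rows in that fit. Without wild-type replicate 1 these medians were 0.21 and 0.05. With no expression filter, the median over all rows was as high as that of the ribosomal protein genes. With all 4 libraries and the filter, the interquartile range was 1.18 over all rows and 0.83 at 100 CPM or more (log2 scale). For the 79 genes it was 0.45. None rose 2-fold and 2 fell 2-fold, RPS26 and RPL39L. A total of 67 of the 79 stayed within 1.5-fold, while 9 rose and 3 fell by more than that. The 2 subunits had similar counts, with 14 higher and 7 lower of 32 for the small subunit (median 0.14) and 22 higher and 7 lower of 47 for the large one (median 0.16).

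**Figure D1:**
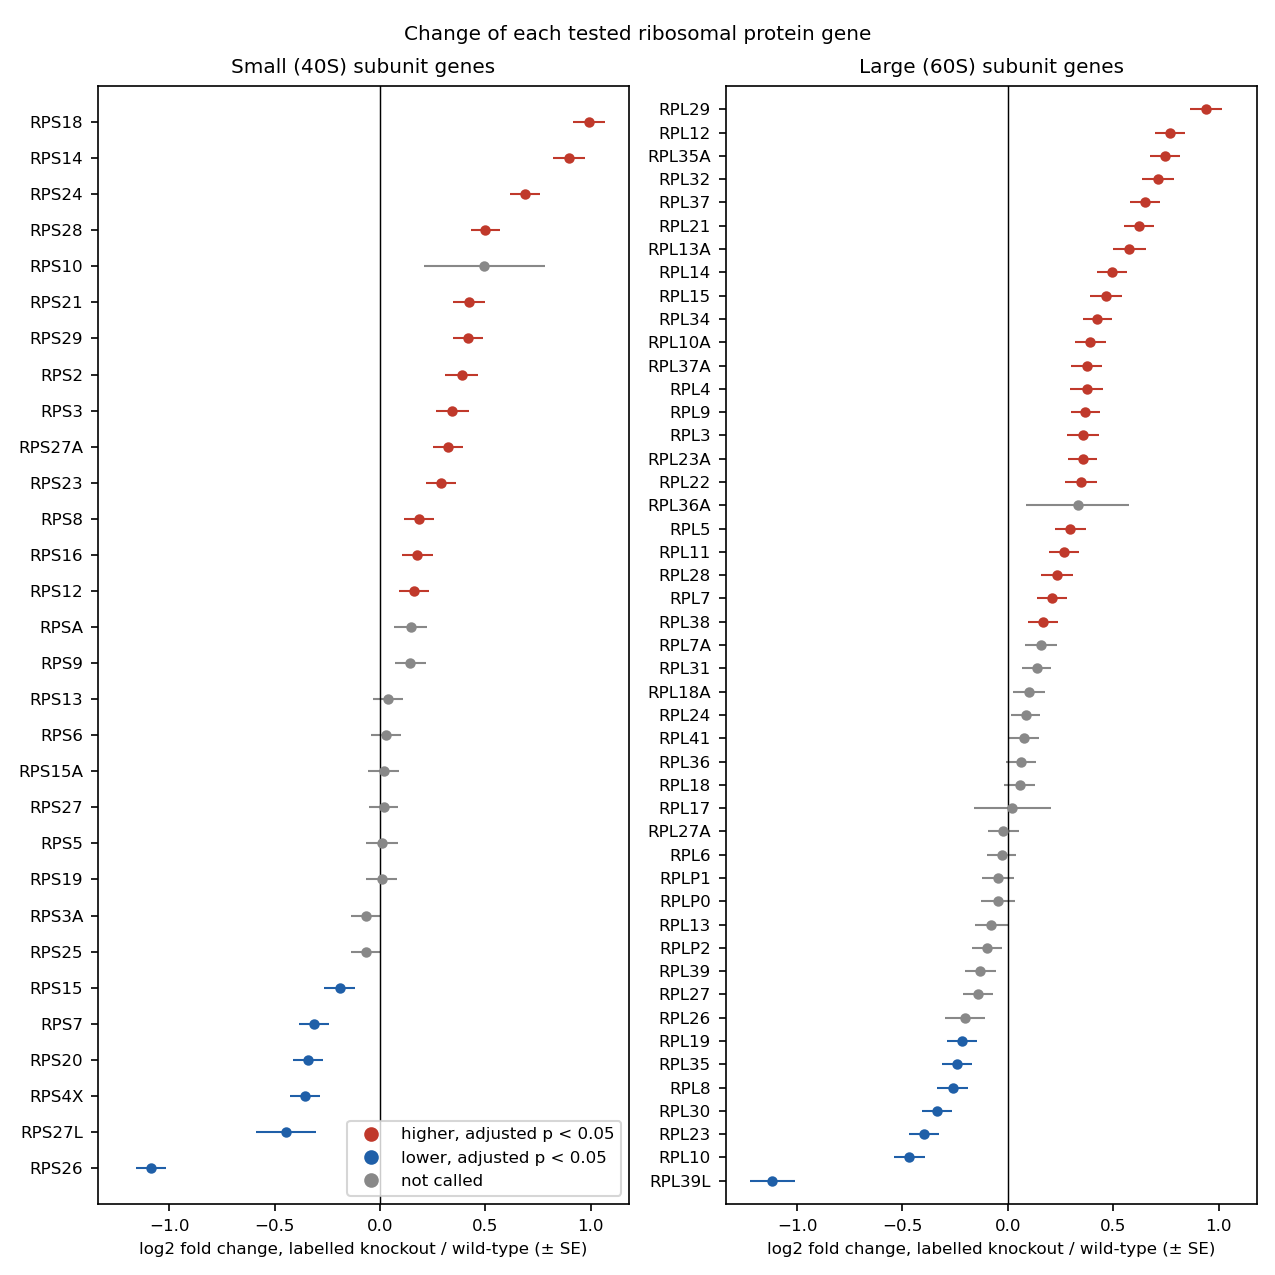
Log2 fold change, libraries labelled knockout over wild-type (x axis), of 77 of the 79 tested genes (y axis), split by subunit, with bars for the standard error and colour for the edgeR call. The 35 rises plotted reach 0.99 (RPS18), and the 13 falls reach -1.12 (RPL39L).

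Replicates lay close together against the difference between groups. Across the 79 genes, the log2 ratio of the wild-type replicates (2 over 1) had a median of -0.08 and an SD of 0.11, and that of the replicates labelled knockout had a median of 0.00 and an SD of 0.07. Ratios of libraries labelled knockout over wild-type had an SD of 0.40 for both replicate numbers. For 65 of the 79 genes (82.3%) the 2 groups did not overlap in CPM, 46 higher and 19 lower, which is the share seen over all tested rows (82.0%) and below that at 100 CPM or more (90.6%). The standard error of a log2 fold change was 0.069 to 0.081 for the genes at 100 CPM or more, so differences near 0.15 sit at the edge of what 4 libraries resolve.

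**Figure D2:**
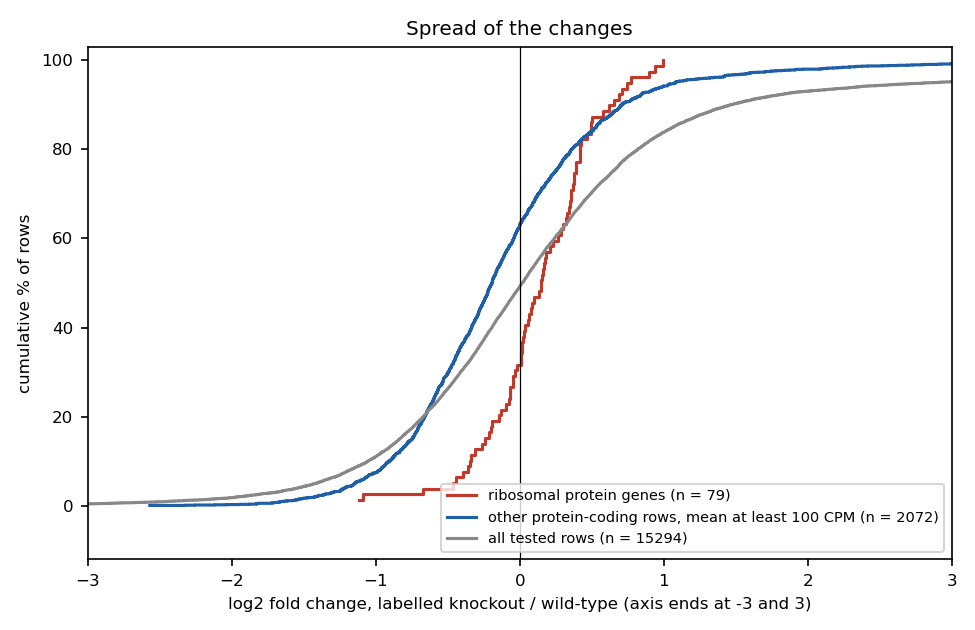
Cumulative percentage of rows (y axis) below each log2 fold change (x axis, ending at -3 and 3), for the 79 ribosomal protein genes, the 2072 other protein-coding rows averaging at least 100 CPM and all 15294 tested rows. The ribosomal protein curve is the steepest, with an interquartile range of 0.45 against 0.83 and 1.18, and crosses 50% at 0.14.

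As a whole the genes took a larger share of the reads in the libraries labelled knockout. They held 9.01% and 8.74% of all counts in wild-type, against 9.74% and 9.80% in the libraries labelled knockout. The groups did not overlap, and the two-sided exact permutation p was 0.333, the smallest that 2 against 2 allows. Without the mitochondrially encoded genes in the total, the shares were 9.51% and 9.19% in wild-type, against 10.8% and 10.8% in the others. Small-subunit genes gave 39.2% and 39.3% of the ribosomal protein reads in wild-type, against 39.6% and 39.5% in the libraries labelled knockout. On a scale per length the summed level did not show that rise: the genes made up 9.69% and 9.56% of all TPM in wild-type, against 9.52% and 9.58% in the others (TPM, reads per kilobase of the deposited gene length, scaled to one fixed total per library).

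Levels differed far more between genes than between groups. RPS2, at the mRNA entry side of the small subunit, had the highest level per length in wild-type, with a mean of 4325 TPM. RPL13A, which also leaves the ribosome to silence inflammatory transcripts, followed with 4183 TPM and was highest in the libraries labelled knockout, with 5443 TPM. RPS12 and RPLP0 came next in wild-type, with 4034 and 3785 TPM. Spearman's correlation of the mean TPM between groups, across the 81 genes, was 0.974, as a description of genes that are no independent replicates. RPS26 dropped the farthest in rank, from place 29 to place 50. Among the climbs, RPL12 moved from place 37 to place 22, farther than RPS18, which moved from place 14 to place 5. Deposited lengths ran from 767 to 9845 bases for proteins that are mostly short, so the order by TPM depends on how the annotation joins exons.

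Apart from the L-suffixed paralogues, the lowest values belonged to rows that share their sequence with another row. Among these, RPS10, RPL17, RPL26 and RPL36A overlap a further protein-coding row of the same strand over at least 90% of their span. For 3 of them this is an annotated read-through transcript with a neighbour, RPS10-NUDT3, RPL17-C18orf32 and RPL36A-HNRNPH2. Their mean level in wild-type was 3.22 TPM (RPL36A) to 64.6 TPM (RPL26), while the 72 genes that are neither overlapped this way nor L-suffixed paralogues ran from 68.5 TPM (RPL22) to 4325 TPM, with a median of 1070.0 TPM. These 4 thus lay under the lowest of the 72 in wild-type, and in the libraries labelled knockout as well (at most 48.9 TPM against at least 72.96 TPM). The overlapping rows themselves held at most 3 reads in any library. RPL5, RPL15, RPL32, RPL35A and RPS4X are overlapped as far by a row of the opposite strand, and stood at 378.8 to 1142 TPM. Whether shared reads were discarded in counting was not tested.

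**Figure D3:**
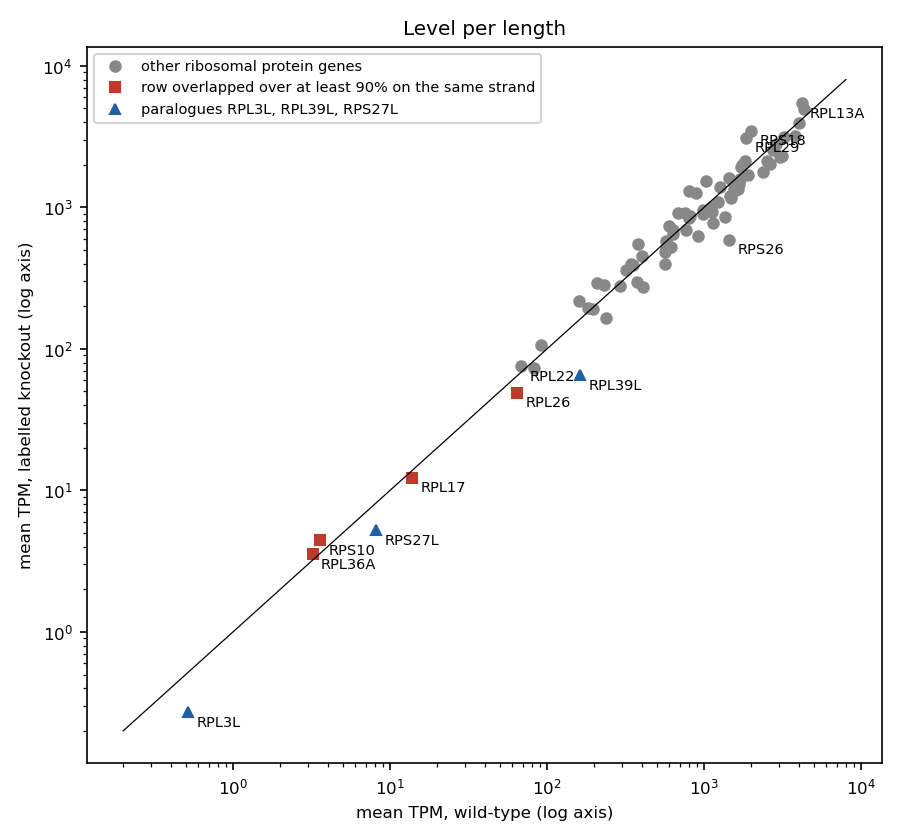
Mean TPM in wild-type (x axis, log) against the mean in the libraries labelled knockout (y axis, log) for 78 of the genes with reads; the line marks equal levels. Squares mark 4 rows with at least 90% same-strand overlap, all at 64.6 TPM or less in wild-type, and triangles the paralogues RPL3L, RPL39L and RPS27L.

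Among small-subunit genes, the rises were led by RPS18, RPS14 and RPS24. RPS18 encodes a protein of the 40S head at the interface with the large subunit (ENSG00000231500, chromosome 6, 33272010 to 33276510; the sources used here name no genome build). It stood at 1249 and 1147 CPM in wild-type and at 2380 and 2389 CPM in the libraries labelled knockout. Both of the latter were well above both wild-type values, and the log2 fold change was 0.99 (SE 0.075, edgeR adjusted p = 4.36e-20), the largest rise of the 79 genes. RPS14 lies on the 40S platform, and its loss from 1 allele underlies the anaemia of the 5q deletion syndrome (ENSG00000164587, chromosome 5, 150442635 to 150449756). It had 1332 and 1244 CPM in wild-type and 2441 and 2361 CPM in the others, a log2 fold change of 0.90 (SE 0.075, edgeR adjusted p = 5.40e-18). RPS24, needed for processing of the 18S rRNA precursor and mutated in Diamond-Blackfan anaemia (chromosome 10, 78033732 to 78056813), went from 490.4 and 539.3 CPM to 821 and 837.4 CPM, a log2 fold change of 0.69 (SE 0.071, edgeR adjusted p = 7.13e-14). The groups of all 3 genes were apart by more than their replicates. These genes were picked by their change, and groups did not overlap for 82.0% of all tested rows.

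RPS26 fell the most in the small subunit. Its protein sits at the mRNA exit channel, where it contacts the message upstream of the start codon (ENSG00000197728, chromosome 12, 56041351 to 56044697). RPS26 held 978.7 and 892.3 CPM in wild-type and 438.7 and 442 CPM in the libraries labelled knockout. That is a 2.12-fold lower mean, with a log2 fold change of -1.09 (SE 0.072, edgeR adjusted p = 3.97e-23). TSR2, the chaperone that hands the RPS26 protein to the assembling subunit, was lower too. It went from 44.1 ± 1.49 to 23.2 ± 2.88 CPM (SD, n = 2 each), a log2 fold change of -0.92 (edgeR adjusted p = 1.26e-10). Of 14 import factors and dedicated chaperones, 6 rose and 7 fell. GRWD1, the chaperone of RPL3, had a log2 fold change of -1.155, while RPL3 was at 0.356. A link between chaperones and the genes of their proteins was not tested. RPS26 pseudogene rows held 0.602% of the reads of the family, and adding them left the log2 fold change at -1.08.

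Further small-subunit falls were smaller. RPS4X, the X-linked gene for eS4 (chromosome X, 72255679 to 72277300), went from 1087 and 1065 CPM to 821.4 and 857.9 CPM, a log2 fold change of -0.36. It missed the threshold without replicate 1 labelled knockout (edgeR adjusted p = 0.0552). RPS20, RPS7 and RPS15 were at -0.34, -0.31 and -0.19 on the log2 scale, and RPS20 missed the threshold without replicate 1 labelled knockout (edgeR adjusted p = 0.0537). RPS7 and RPS15 lost their calls without replicate 1 (edgeR adjusted p = 0.0511 and 0.270) and without replicate 2 (0.0854 and 0.376) labelled knockout.

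The central small-subunit genes RPS6, RPS19 and RPSA showed no call, whereas RPS27A was called higher (edgeR adjusted p = 4.56e-05). RPS6, whose protein is the classic substrate of S6 kinases downstream of mTORC1, stood at 1017 and 1081 CPM in wild-type and at 1047 and 1091 CPM in the others, with overlapping groups and a log2 fold change of 0.03 (SE 0.072). RPS19, the gene most often mutated in Diamond-Blackfan anaemia, had 1905 and 1801 CPM against 1858 and 1864 CPM, a log2 fold change of 0.01 (SE 0.074). RPSA, which doubles as a laminin receptor, was at 3831 and 3349 CPM in wild-type and 3992 and 3945 CPM in the others. Its groups did not overlap, but the log2 fold change of 0.14 (SE 0.080) missed the threshold (edgeR adjusted p = 0.103), and without wild-type replicate 1 it was 0.26 and passed (edgeR adjusted p = 1.33e-07). Without wild-type replicate 2 it was 0.04 (edgeR adjusted p = 0.360), and it did not pass with either library labelled knockout left out (0.534 and 0.467). RPS27A, which is made as a fusion with ubiquitin, rose from 619.2 and 638.3 CPM to 796.4 and 776.3 CPM, a log2 fold change of 0.32, and missed the threshold without replicate 1 labelled knockout (edgeR adjusted p = 0.0571).

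**Figure D4:**
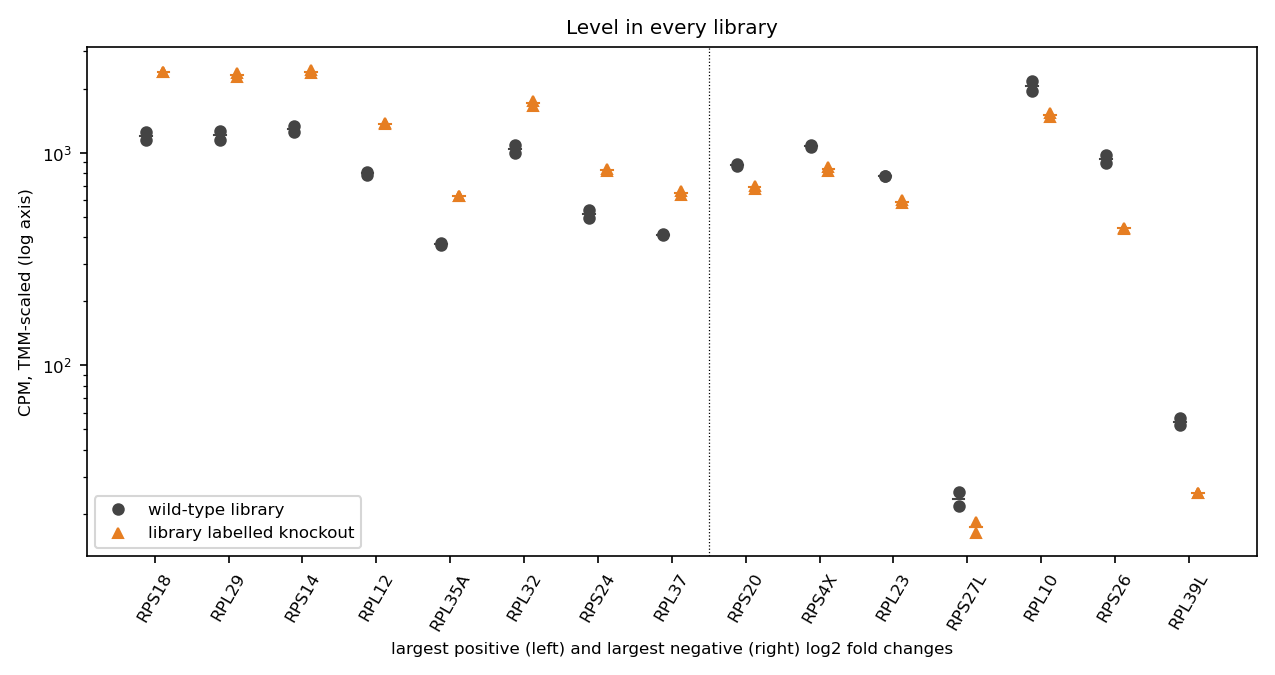
CPM (log axis) in every library for the 8 genes with the largest positive (left) and 7 of the 8 with the largest negative (right) log2 fold changes; dashes mark group means. The genes were picked by these same changes. In all 15 the 2 groups are apart, as in 82.0% of all tested rows, with RPS18 near 1200 and 2380 CPM and RPS26 near 935.5 and 440 CPM.

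In the large subunit RPL29, RPL12, RPL35A, RPL32 and RPL37 led the rises. RPL29, a small basic protein (ENSG00000162244, chromosome 3, 51993522 to 51995942), stood at 1265 and 1147 CPM in wild-type and at 2356 and 2278 CPM in those labelled knockout. On the log2 scale the fold change was 0.94 (SE 0.075, edgeR adjusted p = 6.60e-19). RPL12 belongs to the base of the stalk that recruits elongation factors (chromosome 9, 127447674 to 127451405), and had 810.5 and 788.3 CPM in wild-type and 1371 and 1357 CPM in the others, a log2 fold change of 0.77 (SE 0.072). RPL35A, also a Diamond-Blackfan anaemia gene (chromosome 3, 197949980 to 197956610), went from 376.9 and 367 CPM to 626.1 and 622.8 CPM, a log2 fold change of 0.75 (SE 0.070). These pairs of values show little scatter within a group. RPL32 (1087 and 990.9 CPM against 1663 and 1744 CPM) and RPL37 (414.7 and 408.3 CPM against 630.3 and 662.2 CPM) were at 0.71 and 0.65 on the log2 scale. RPL13A, RPL21, RPL14 and RPL15 followed at 0.58, 0.62, 0.50 and 0.46.

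The large-subunit falls were led by the paralogue RPL39L, described below, and by RPL10 and RPL23. RPL10 encodes uL16, which joins the large subunit at a late cytoplasmic step of its maturation and is recurrently mutated in childhood T cell leukaemia (ENSG00000147403, chromosome X, 154389955 to 154409168). It stood at 2182 and 1949 CPM in wild-type and at 1527 and 1463 CPM in the libraries labelled knockout, a log2 fold change of -0.47 (SE 0.075, edgeR adjusted p = 9.85e-08). RPL23, one of the ribosomal proteins that bind MDM2 (chromosome 17, 38847865 to 38853843), went from 774.5 and 776.6 CPM to 598.6 and 578.6 CPM, a log2 fold change of -0.40 (SE 0.070). The other called falls were RPL30, RPL8, RPL35 and RPL19, between -0.34 and -0.22. RPL30 missed the threshold without replicate 1 labelled knockout (edgeR adjusted p = 0.0600). RPL8, RPL35 and RPL19 missed it without that library (edgeR adjusted p = 0.212, 0.209 and 0.269) and without replicate 2 labelled knockout (0.140, 0.152 and 0.238).

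The 5S particle genes and the stalk genes differed in their calls. RPL5 and RPL11 bind 5S rRNA together and, when free, inhibit MDM2. RPL5 had 926.3 and 980 CPM in wild-type and 1159 and 1182 CPM in the libraries labelled knockout, a log2 fold change of 0.30 (SE 0.072, edgeR adjusted p = 0.000217). RPL11 had 679.4 and 676.7 CPM against 802.1 and 829.2 CPM, a log2 fold change of 0.27 (SE 0.071, edgeR adjusted p = 0.000663). Both lost their calls with either library labelled knockout left out, with edgeR adjusted p from 0.0645 to 0.135. RPLP0, the stalk protein that anchors the others and a common reference gene, was at 5099 and 4479 CPM in wild-type and 4662 and 4613 CPM in the others, with overlapping groups and a log2 fold change of -0.05 (SE 0.081). RPLP1 (2689 and 2490 CPM against 2583 and 2433 CPM) was at -0.05 (SE 0.077) and RPLP2 (928.3 and 890.6 CPM against 844.1 and 856 CPM) at -0.10 (SE 0.071). Without wild-type replicate 2, all 3 stalk genes passed the threshold as lower, at -0.15 (edgeR adjusted p = 0.000512), -0.12 (0.0116) and -0.14 (0.00256). Without wild-type replicate 1 they were at 0.07 (edgeR adjusted p = 0.0690), 0.03 (0.499) and -0.05 (0.283), so the sign of RPLP0 and RPLP1 turned with the wild-type library left out. The difference between stalk and 5S particle genes was not tested.

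Genes known from disease did not move in 1 direction. Among genes mutated in Diamond-Blackfan anaemia, RPL5, RPL11, RPS24 and RPL35A rose, RPS26 fell and RPS19 did not pass. RPL22, lost in part of T cell leukaemias, rose from 94.1 and 107.9 CPM to 130.2 and 126.8 CPM, a log2 fold change of 0.35 (SE 0.077, edgeR adjusted p = 5.66e-05). RPL22L1, its paralogue, which RPL22 is known to repress in mice, held 569 and 631 reads in wild-type, against 577 and 665 in the others, and its log2 fold change of 0.22 did not pass (SE 0.109, edgeR adjusted p = 0.0678). Per length, RPL22L1 stood at 69.8% and 73.9% of RPL22 in wild-type, against 60.8% and 71.2% in the others, which overlap.

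The L-suffixed paralogues ranged from clearly expressed to silent. RPL39L, a paralogue of RPL39 known from testis and many cancer cells (ENSG00000163923, chromosome 3, 187120948 to 187180908), stood at 56.5 and 52.3 CPM in wild-type and at 25.2 and 25.01 CPM in those labelled knockout. On the log2 scale the fold change was -1.12 (SE 0.108, edgeR adjusted p = 3.26e-15), the largest fall of the 79 genes. RPL39, a protein lining the exit tunnel, had 275.2 and 230.5 CPM in wild-type and 236.4 and 225.7 CPM in the others, and its log2 fold change of -0.13 (SE 0.073) did not pass. RPL39 was called lower without wild-type replicate 2, at -0.27 (edgeR adjusted p = 4.96e-05), and stood at 0.02 without wild-type replicate 1 (0.702). Per length, RPL39L was 41.5% and 45.8% of RPL39 in wild-type, against 21.5% and 22.4% in the others. RPS27L, a p53 target, had 442 and 346 reads in wild-type, against 269 and 241 in the others, a log2 fold change of -0.45 (SE 0.144, edgeR adjusted p = 0.00488). That call was lost without replicate 2 labelled knockout (edgeR adjusted p = 0.143) or wild-type replicate 1 (0.0659). Its partner RPS27 (643.6 and 606.7 CPM against 623.7 and 641.8 CPM) was at 0.02 (SE 0.070), and RPS27L amounted to 0.427% ± 0.0289 of RPS27 per length in wild-type and 0.310% ± 0.0329 in the others (SD, n = 2 each). RPL3L, the striated muscle form of RPL3, held 8 and 7 reads in wild-type against 3 and 5 in the others, too few for a test. RPL3 itself, next to the peptidyl transferase centre, rose from 2678 and 2520 CPM to 3294 and 3358 CPM, a log2 fold change of 0.36 (SE 0.077), and missed the threshold with either library labelled knockout left out (edgeR adjusted p = 0.0516 and 0.0688). RPL10L, the testis retrogene of RPL10, had 0 reads in all 4 libraries, which allows up to 0.172 to 0.2 CPM per library by counting error alone (3 counts of the total).

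Processed pseudogenes, the reverse-transcribed copies of these transcripts, took a steady share of the family's reads. A total of 1132 pseudogene rows are named after 76 of the 81 genes, and 336 of them had reads. They held 4.86% and 4.98% of the combined reads in wild-type, against 4.92% and 4.96% in the libraries labelled knockout. For 9 genes the pseudogene rows held more than 10% of the family's reads, led by RPS10 (77.6%), RPL9 (57.6%), RPS28 (36.6%) and RPS2 (28.0%). Adding pseudogene reads to each gene changed 1 call of 79. RPS28 alone went from 416.1 and 384.3 CPM to 565.5 and 566.4 CPM, a log2 fold change of 0.50 (SE 0.070, edgeR adjusted p = 2.48e-09), while its pseudogene RPS28P7 fell from 5634 and 5337 reads to 3126 and 3254 reads (log2 fold change -0.61). Summed, the RPS28 family was at 0.10 and did not pass. RPL10 and its pseudogene RPL10P9 also went opposite ways: RPL10P9 had 820 and 677 reads in wild-type, against 1684 and 1642 in the others (log2 fold change 1.33), and the summed RPL10 family was at -0.35. Of the 86 pseudogene rows tested, 27 rose and 7 fell, with a median of 0.36. These are 31.4% and 8.14%, beside 33.7% and 32.3% of all tested rows. DESeq2 called 17 higher and 4 lower, and edgeR without replicate 1 labelled knockout 15 and 4. The extremes were low rows. RPS2P32 had 2 and 0 reads in wild-type, against 66 and 46 in the others, a ratio of 61.3 with a 95% exact conditional interval of 16.6 to 512.5 for counting error only. RPL29P11 and RPL7P23 rose by 2.31 and 1.59, and RPL7AP28, RPS2P55 and RPS26P3 were at -1.36, -1.20 and -1.04 on the log2 scale. Since these copies are near-identical to their parents, it is uncertain how their reads were divided.

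Neighbouring genes were set beside each ribosomal protein gene. The median log2 fold change of the 10 nearest tested protein-coding genes on either side ranged from -0.82 to 0.91 over the 79 genes, and 43 of the 79 had the sign of their neighbours. Across the 79 genes the correlation with the neighbour median was weak (Pearson's r = 0.243, Spearman's rho = 0.287), as a description of genes that share libraries. Several genes with large changes had neighbours with a median of the opposite sign. RPS18 (0.99) lay among neighbours at -0.06, RPL29 (0.94) among neighbours at -0.17, RPL12 (0.77) at -0.48 and RPL39L (-1.12) at 0.36. RPS14 (0.90) shared a sign with its neighbours (0.51), as did RPS26 (-1.09, neighbours -0.27) and RPL10 (-0.47, neighbours -0.59). In the neighbourhoods with the highest and the lowest median, the genes themselves were near 0. RPL24 was at 0.08 among neighbours at 0.91, and RPL13 at -0.08 among neighbours at -0.82. RPL24 was called higher without wild-type replicate 1 (0.11, edgeR adjusted p = 0.0309), and RPL13 lower without wild-type replicate 2 (-0.16, edgeR adjusted p = 0.000599).

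Of 6 ribosomal protein genes outside the naming rule, 2 rose and 2 fell, or 1 and 1 with either library labelled knockout left out. RACK1, the scaffold on the 40S head, rose from 1996 ± 136.6 to 3438 ± 47.3 CPM (SD, n = 2 each), a log2 fold change of 0.78. FAU, the fusion that yields eS30, fell by 0.23. RPL26L1 fell from 52.1 ± 3.65 to 29.1 ± 0.0467 CPM (SD, n = 2 each), a log2 fold change of -0.84, and RPL36AL did not pass (-0.08).

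Most other TOP transcripts rose, where over all tested rows 33.7% rose and 32.3% fell. Of 15 tested genes of this kind, 10 rose and 2 fell, with a median of 0.42, and 1 fell with either library labelled knockout left out. EEF2, the translocation factor, rose from 5309 ± 383.2 to 11260 ± 182.7 CPM (SD, n = 2 each), a log2 fold change of 1.08. IPO7, an importin for ribosomal proteins, and PABPC1, the poly(A)-binding protein, rose by 1.12 and 0.96, and EEF1A1, which delivers aminoacyl-tRNA, by 0.76. EEF1D and VIM fell by 0.38 and 0.24. EEF1G was listed at 0 reads in all 4 libraries, and its row is overlapped over 99.99% of its span by another row of the same strand. The non-coding hosts of snoRNAs, many of them TOP transcripts, rose for 7 and fell for 2 of 13 (median 0.26), with SNHG1, EPB41L4A-AS1 and GAS5 at 1.34, 1.33 and 1.14, and SNHG5 and SNHG16 at -0.65 and -0.24. With either library labelled knockout left out, 1 of these hosts was called lower.

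Mitochondrial ribosomal proteins serve the separate ribosome of that organelle. Of 77 tested genes of 78, 15 rose and 42 fell, with a median of -0.29. The 54.5% that fell compare with 32.3% of all tested rows and 52.8% of the other protein-coding rows at 100 CPM or more. The share is close to that of the latter rows, which are not matched in level. The 78 genes summed to 5080 to 6003 CPM per library, so they averaged below 100 CPM. Their share of all counts was 0.598% in both wild-type libraries and 0.499% and 0.501% in the others. MRPL27, MRPL51 and MRPS28 fell by 1.29, 1.15 and 1.11 on the log2 scale, and MRPS21, MRPS30 and MRPS31 rose by 1.58, 1.28 and 1.06. The difference from the cytosolic genes was not tested.

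The machinery that builds and regulates ribosomes moved in both directions, as did all tested rows (33.7% rose and 32.3% fell). Of the assembly factors 32.4% rose and 43.7% fell, and of the polymerase genes below 30.6% and 36.1%. Of 71 assembly factors, 23 rose and 31 fell (median -0.05). NMD3, the export adaptor of the large subunit, NPM1, a nucleolar chaperone, and KRR1 rose by 1.86, 1.10 and 0.91, and PWP2, PPAN and BOP1 fell by 2.82, 1.38 and 1.24. Of 36 genes of RNA polymerases I and III, 11 rose and 13 fell (median -0.08), with GTF3C5, POLR1D and POLR3C at 1.43, 1.39 and 1.35 and CD3EAP and UBTF, the activator of rRNA transcription, at -1.21 and -1.05. Without replicate 2 labelled knockout, 7 polymerase genes were called higher. Among 14 import factors and dedicated chaperones, 6 rose and 7 fell (median -0.21), with IPO5, IPO7 and TNPO1 at 1.14, 1.12 and 0.56 and GRWD1, the chaperone of RPL3, TSR2 and RPS19BP1 at -1.16, -0.92 and -0.78.

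Translation initiation factors rose for 16 and fell for 13 of 35 (median 0.09), or fell for 7 without replicate 2 labelled knockout. EIF4G3, EIF5B and EIF3C were at 1.32, 0.90 and 0.86, although EIF3C has a near-identical copy and its libraries labelled knockout stood apart at 59.1 and 103.7 CPM, and EIF4A3, EIF3B and EIF2B1 at -0.83, -0.67 and -0.56. Genes of mTORC1 and LARP1 control rose for 9 and fell for 10 of 21 (median -0.19), with 6 falls without replicate 2 labelled knockout. DDIT4, an inhibitor of mTORC1, rose from 50.6 ± 1.28 to 335.3 ± 10.8 CPM (SD, n = 2 each), and PDCD4 rose by 1.22. DEPTOR rose too, but on few reads, 2 and 12 in wild-type against 15 and 19 (log2 fold change 1.43, SE 0.586, edgeR adjusted p = 0.0256). RRAGA, RRAGC and TBC1D7 fell by 1.04, 0.90 and 0.89. LARP1 itself rose by 0.62 and MTOR did not pass (-0.10). Genes that deal with stalled ribosomes rose for 7 and fell for 3 of 13 (median 0.35), with GTPBP2, NEMF and ASCC3 at 1.52, 1.43 and 0.82 and EDF1, DRG1 and PELO at -0.51, -0.44 and -0.29. These values come from the same 2 libraries in which myeloid markers and mitochondrially encoded genes were higher and T cell markers lower. For scale, 33.7% of all tested rows rose and 32.3% fell.

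**Figure D5:**
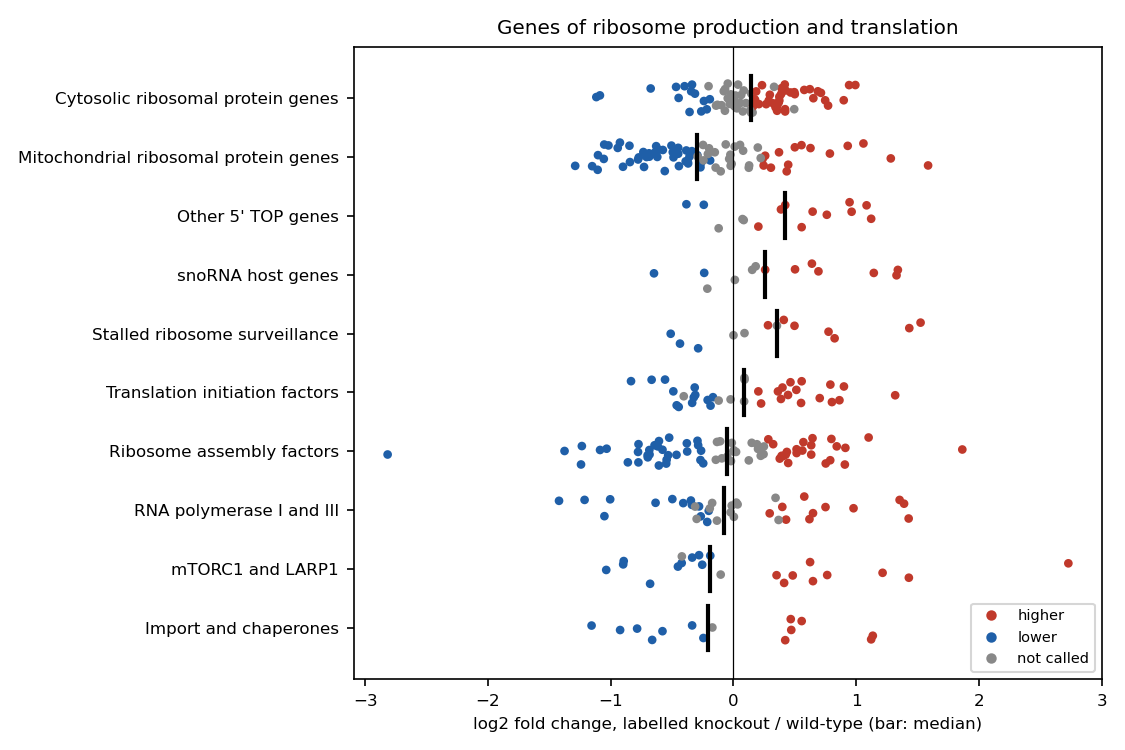
Log2 fold change, libraries labelled knockout over wild-type (x axis), of every tested gene in 10 groups (y axis), coloured by edgeR call, with the median as a bar. Cytosolic ribosomal protein genes (median 0.14) have an interquartile range of 0.45, and mitochondrial ribosomal protein genes (median -0.29) lean lower.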

How the data were processed

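The authors deposited 1 table of raw read counts per gene for 4 RNA-seq libraries, with symbols, biotypes, coordinates and gene lengths; count columns were matched to samples through the labels' descriptions, and 0 other columns of per-sample values were present. Per the submitters' processing notes, the tools were featureCounts 1.5.0-p3, HISAT2 2.0.5 and CASAVA 1.8. Genome build, strand setting and the handling of multi-mapping reads are not given in these sources. Samples are labelled as mouse, whereas the row identifiers and the cell line are human.

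Counts were tested with edgeR 4.0.16 (R 4.3.3): TMM, its default expression filter (10 counts, 15 in total), a two-sided quasi-likelihood test without covariates and Benjamini-Hochberg adjustment over all tested rows, with a threshold of 0.05. The procedure was tested on simulated data in which few genes changed. There 9 of 176 calls were false, and 82.6% of the 2-fold changes that passed the expression filter were recovered. That filter kept 14175 of the 15294 simulated rows. In the real data 66.0% of tested rows passed, a setting that this simulation does not cover. TPM used the deposited lengths. The 81 genes and all lists were chosen with earlier results of these data known; 278 of 284 listed symbols were in the table. Named genes follow a fixed rule: the 8 largest rises and falls, genes of set roles, and up to 3 rises and 3 falls per related list. Some genes that the rule names are not reported here. Further genes were named after their values were seen, and marker lists are given by counts and sums. Alternatives were other scalings, DESeq2 1.42.0, limma 3.58.1 voom, other filters, thresholds and denominators, summed pseudogenes, a replicate block and leaving out each library. Libraries of 15008554 to 17477643 counts leave rows with few reads imprecise.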

Additional observations from a re-analysis of the deposited data

How the results depend on the processing

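Under 15 other fits, 26 ribosomal protein genes kept their call and direction throughout, 21 higher and 5 lower (RPL10, RPL23, RPL39L and RPS26 among them), and no called gene changed sign. Over the fits on all 4 libraries, 32 to 40 were called higher and 13 to 20 lower. Requiring at least 1.5-fold left 9 higher and 3 lower. Leaving out 1 library gave 24 to 46 higher, 6 to 21 lower and a median log2 fold change of 0.077 to 0.21; such fits hold fewer samples, and the lone library of a group is assumed to vary like the other group. With library totals in place of TMM the median was 0.10, and the cause was not tested. The gain in the share of counts, 0.899 percentage points, was 1.44 points without the mitochondrially encoded genes. Of 435 values for 29 named genes, 416 kept their side of the threshold. Of 474 counts for the related and marker lists, 20 moved by over 1.5 times, 15 of them on leaving out a library. With the replicate number as a block, 36 were higher and 14 lower (median 0.15) and no call changed. Deviations of same-numbered libraries were nearly uncorrelated (r = 0.0288 over 10827 genes). With 2 libraries per group, that value cannot show whether same-numbered libraries shared a batch. RPS10, RPL36A, RPL17 and RPL3L had the fewest reads of the ribosomal protein genes with any, and the cause was not tested.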
